A study of Mus musculus with 6 samples.

Results

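The genes described here are 10 members of the fibroblast growth factor (FGF) pathway: the ligand genes Fgf4, Fgf5, Fgf10 and Fgf15, the receptor genes Fgfr1, Fgfr2, Fgfr3 and Fgfr4, and the feedback genes Spry4 and Dusp6. They were chosen by name, with earlier results of these data known, and all 10 had at least 1 of the 26 probe sets that the array annotation gives to them alone, out of 18193 genes named in this way. The samples were mouse embryoid bodies, aggregates of differentiating embryonic stem cells of the D3 line, kept in medium without the self-renewal factor LIF under rotary culture and taken at 10 days. Every body held gelatin-coated microspheres. In the 3 control samples they held the dye CellTracker Red, and in the 3 others they were loaded with retinoic acid (RA), a signalling molecule made from vitamin A that binds nuclear receptors. Each sample was read on 1 Affymetrix array. The labels give no genotype, no control body without microspheres and no dose, and say that ratios of microspheres to cells and rotary speeds varied without giving them per sample. They call the samples triplicates and do not say that these were separate cultures, so p-values measure the spread between these arrays, which may be technical.

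FGF ligands bind receptor tyrosine kinases on the cell surface together with heparan sulphate, and the receptor passes the signal through adaptor proteins and Ras to the kinase ERK. ERK switches on genes that include its own inhibitors, among them the Sprouty proteins and ERK phosphatases, so these inhibitors are commonly read as a record of pathway activity. In embryonic stem cells Fgf4 is the main ligand that prepares cells to leave the self-renewing state, and Fgf5 is a classical marker of the epiblast, the cell layer that gives rise to the embryo proper after implantation.

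The promoters of the ligand genes Fgf5 and Fgf4 are shown because both ligands are linked to the exit from self-renewal, while their values on these arrays were unlike. Each sequence is the stretch of 250 bases before the RefSeq start, in build GRCm38.p6, plus strand, read 5′ to 3′. Capitals mark GC boxes (GGGCGG on either strand) and, for Fgf4, a run that holds TATATA in 2 overlapping matches. The Fgf5 window is chr5:98253934-98254183 and the Fgf4 window is chr7:144861136-144861385.
Fgf5: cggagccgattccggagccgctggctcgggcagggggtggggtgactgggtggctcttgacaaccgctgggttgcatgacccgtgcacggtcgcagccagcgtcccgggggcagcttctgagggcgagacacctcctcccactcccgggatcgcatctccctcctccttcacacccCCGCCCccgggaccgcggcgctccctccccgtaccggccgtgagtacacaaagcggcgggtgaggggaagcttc
Fgf4: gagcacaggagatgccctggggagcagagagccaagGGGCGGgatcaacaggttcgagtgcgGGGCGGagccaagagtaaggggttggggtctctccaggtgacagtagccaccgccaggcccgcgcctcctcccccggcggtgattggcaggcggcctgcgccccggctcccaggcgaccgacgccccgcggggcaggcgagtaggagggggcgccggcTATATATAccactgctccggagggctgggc

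Both windows were rich in G and C, at 70.8% for Fgf5 and 71.2% for Fgf4, against a median of 52.4% over 32851 RefSeq promoter windows of the same length. The Fgf5 window held 1 GC box, on the opposite strand and starting 74 bases before the start of the gene. The Fgf4 window held 2, starting 214 and 188 bases before the start. A GC box occurred in 32.7% of all windows and TATATA in 5.25%. The first TATATA of Fgf4 began 30 bases before its start. The letters AGGTCA, a half-site of retinoid receptors, were searched on both strands as well and were in neither window, and 14.0% of all windows held them. TATAAA was in neither window and in 12.4% of all. Promoter windows were matched for 7 of the 10 genes. These matches describe letters and show no binding.

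Before the values, some facts of the arrays touch the results. The median signal was 41.4 on control array 3, while the remaining 5 ran from 54.7 to 65.5, so the values below are log2(intensity + 16) after quantile normalization between arrays. The ratio of 3-prime to 5-prime signal for Gapdh, which rises when RNA is broken, was 34.0 on RA array 1 and 3.06 to 4.74 elsewhere. The same ratio for actin was 3.46, 3.35 and 4.24 on control arrays 1, 2 and 3. On RA arrays 1, 2 and 3 it was 7.42, 4.35 and 4.90, so every RA array was above every control array. The part of RNA quality in the differences between groups was not tested. Where leaving out control array 3 or RA array 1 moves a member's value by over 1.5 times, the value without it is given. Log2 values correlated at 0.959 to 0.971 across genes between arrays of 1 group and at 0.879 to 0.901 between groups. A gene was tested if its mean level exceeded the 40th percentile of all probe sets, which is 5.74 in log2, and is represented by its brightest such probe set. Levels under 5.74 are open to background, and no detection calls were used. Differences are RA minus control, with the standard error (SE) of the limma fit and p-values adjusted by the Benjamini-Hochberg method over 13608 genes. Levels of different genes come from different probes and are not compared.

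With RA, 3 of the 10 genes rose, Fgf5, Fgf15 and Spry4, and 0 fell (limma, threshold of 0.05). Over all genes tested 14.3% were called higher, 15.6% lower and 30.0% in either direction, so the members' share of calls in either direction is at that of the array as a whole. For 5 of the 10 every RA array was higher than every control array, which also held for 21.8% of all genes. The median difference of the 10 was 0.32 on the log2 scale, and that of all genes was 0.01.

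**Figure D1:**
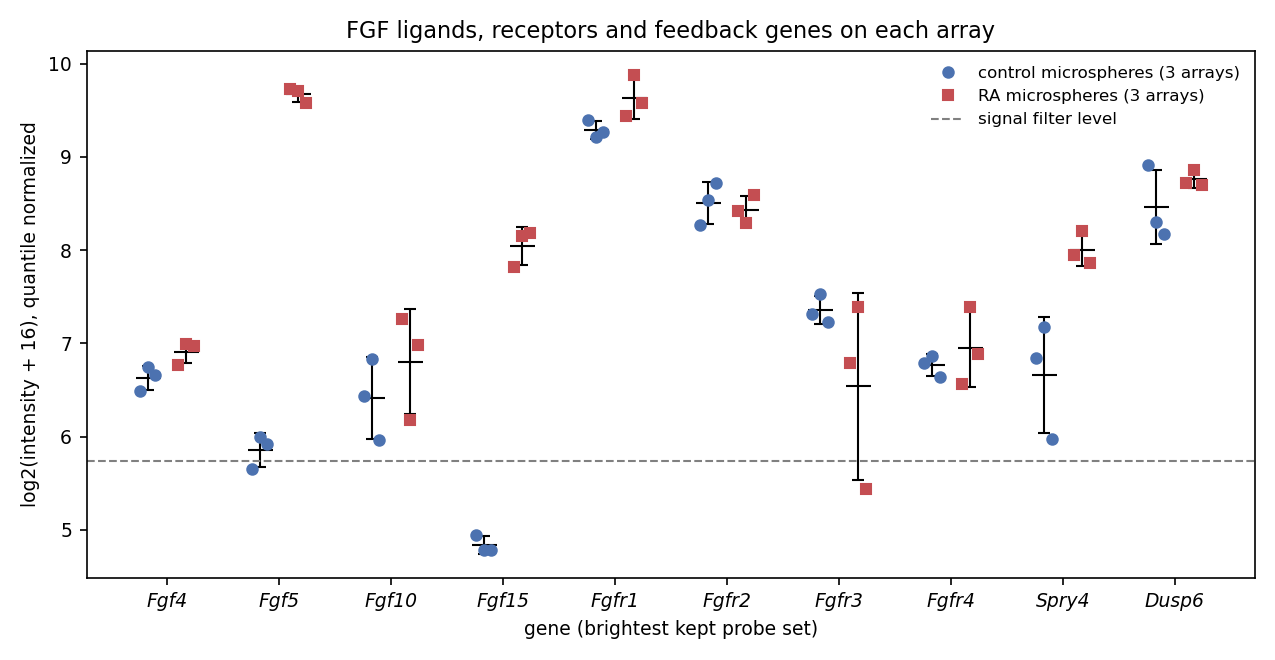
Level of each of the 10 genes on each array, as quantile-normalized log2(intensity + 16), for 3 control arrays (circles) and 3 RA arrays (squares), with mean and SD as black bars and the filter level of 5.74 as a dashed line. The RA arrays of Fgf5 lie between 9.58 and 9.73 and its control arrays between 5.65 and 5.998, while the arrays of Fgfr2, Fgfr3, Fgfr4, Fgf10 and Dusp6 overlap.

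Among the ligands, Fgf5 showed the largest difference. Its levels were 5.65, 5.998 and 5.92 on control arrays 1, 2 and 3, while RA arrays 1, 2 and 3 read 9.73, 9.71 and 9.58. All RA arrays thus lay far above all controls, whose values sat next to the filter level. The difference was 3.82 ± 0.15 (SE), or 14.1-fold, with a 95% interval of 11.2 to 17.7-fold and a limma adjusted p of 1.20e-08. On the deposited scale, without normalization, the same probe set read 32.4, 52.9 and 31.8 in controls and 864, 991 and 860 with RA. The second Fgf5 probe set did not reach the filter, with levels of 4.67, 4.53 and 4.68 in controls and 6.41, 6.39 and 6.73 with RA. It showed the same direction, with a difference of 1.88 and a limma adjusted p of 0.00182 when no filter was used. The size of the Fgf5 difference depended on the pseudocount, at 4.23 with a pseudocount of 1 and 3.03 with 64, because the control signal is low.

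Fgf15, which in the mouse embryo is known from the developing brain and later acts as an intestinal hormone on bile acid synthesis, was the other ligand that rose. Its levels were 4.94, 4.78 and 4.78 on the control arrays and 7.81, 8.15 and 8.18 on the RA arrays. The controls were all under the filter level and the RA arrays were all above it, so Fgf15 entered the test through its RA arrays alone. With the filter level taken in place of the control mean, the RA mean was 4.96-fold higher with the pseudocount of 16, or 2.31 on the log2 scale. The fitted difference was 3.21 ± 0.23 (limma adjusted p = 1.62e-06). Both sizes depend on the pseudocount, so neither is a bound. Deposited intensities were 13.7, 12.5 and 8.25 in controls and 213, 305 and 305 with RA. The array holds 1 probe set for this gene, so no second reading exists here. With pseudocounts of 1 and 64 the fitted difference was 4.21 and 2.03, and with a filter at the 60th percentile Fgf15 was not tested.

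Fgf4, the ligand of self-renewing cells and of the early epiblast, did not pass. Its brightest probe set lay at 6.49, 6.74 and 6.66 in controls and at 6.77, 6.996 and 6.97 with RA. The arrays did not overlap, but the step between the highest control and the lowest RA array was small. The difference was 0.28 ± 0.20 (limma adjusted p = 0.333), with a 95% interval of -0.16 to 0.73. The other Fgf4 probe sets above the filter pointed in different directions, at -0.31 and 0.10, and another below it stood at 0.30. Fgf10, a ligand that mesenchyme sends to neighbouring epithelium, was at 6.44, 6.84 and 5.96 in controls and 7.26, 6.18 and 6.98 with RA. These arrays were scattered and overlapping in both groups, and the difference of 0.39 ± 0.32 did not pass (limma adjusted p = 0.397, 95% interval -0.31 to 1.09). It ranged from 0.17 without RA array 1, and 0.17 without control array 3, to 0.70 without RA array 2. Without RA array 1 and control array 3 together its sign turned, at -0.06.

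Fgf4 and Fgf15 are direct neighbours on chromosome 7 in RefSeq order, with Fgf3 on the far side of Fgf4, and LTO1 and then the cyclin gene Ccnd1 on the far side of Fgf15. LTO1 had a difference of 0.23 ± 0.16 (limma adjusted p = 0.308) and Ccnd1 one of 0.15 ± 0.13 (limma adjusted p = 0.417). Fgf3 lay below the signal filter. In this row of genes, Fgf15 was therefore the only one of the 4 tested that passed. Next to Fgf5 on chromosome 5, Prdm8 rose by 0.89 ± 0.28 (limma adjusted p = 0.0318) from a control mean below the filter level, and Antxr2, beyond it, fell by 1.03 ± 0.13 (limma adjusted p = 0.000145). Cfap299, on the other side, had a difference of 0.34 ± 0.37 (limma adjusted p = 0.535).

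No receptor gene passed. Fgfr1, the main FGF receptor of embryonic stem cells and epiblast, came nearest. Its levels were 9.40, 9.21 and 9.27 in controls and 9.44, 9.88 and 9.57 with RA. The RA arrays lay above the controls, RA array 1 only just so, and the difference of 0.34 ± 0.12 missed the threshold (limma adjusted p = 0.0518, 95% interval 0.08 to 0.60). Without RA array 1 it passed, at 0.43 (limma adjusted p = 0.0230), and without RA array 1 and control array 3 it also passed, at 0.43 (limma adjusted p = 0.0399). Of the other Fgfr1 probe sets, 1 stood at 0.68 ± 0.24 with no overlap between groups and 1 at -0.17 ± 0.25, and neither passed over all probe sets above the filter. The one with the negative value read 6.50 on RA array 1, the array with the high Gapdh ratio, and 7.502 and 7.31 on the other RA arrays, beside 7.18, 7.32 and 7.32 in controls. The part of RNA quality in this was not tested.

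Fgfr2, a receptor of epithelia, trophoblast and extraembryonic endoderm, had the smallest difference of the 10 genes. It read 8.27, 8.54 and 8.72 in controls and 8.42, 8.29 and 8.59 with RA. The arrays overlapped fully, with a difference of -0.07 ± 0.14. The 95% interval was -0.39 to 0.24, or 0.765 to 1.18-fold on this scale. A second probe set gave -0.04. The sign was not stable, since without scaling of the arrays the first stood at 0.19, and without control array 3 it stood at 0.03.

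Fgfr3, known for its part in growing cartilage, varied most among the RA arrays. Its brightest probe set was at 7.31, 7.53 and 7.23 in controls and 6.79, 7.39 and 5.44 with RA. RA array 2 sat among the controls and RA array 3 fell below the filter level. The difference of -0.82 ± 0.39 did not pass (limma adjusted p = 0.144). Leaving out RA array 2 turned it into a call, at -1.24 (limma adjusted p = 0.0253), and leaving out RA array 3 brought it to -0.27. The second probe set pointed the other way, at 0.48 ± 0.44, and there control array 1 was the low one, at 4.86 beside 6.58 and 6.56.

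Fgfr4, the receptor through which Fgf15 acts in liver, did not pass. Its levels were 6.79, 6.87 and 6.64 in controls and 6.57, 7.39 and 6.88 with RA, so RA array 1 was lowest and RA array 2 highest of all. The difference was 0.18 ± 0.24 (limma adjusted p = 0.615, 95% interval -0.34 to 0.70). It was 0.38 without RA array 1, 0.12 without control array 3 and -0.04 without RA array 2. A second probe set had RA arrays all above the controls, at 0.37 ± 0.21, without passing. The remaining 3 probe sets of Fgfr4 lay below the filter.

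The 2 feedback genes differed in outcome. Spry4, a Sprouty protein that blocks the step from receptor to Ras, had levels of 6.84, 7.18 and 5.97 in controls and 7.94, 8.20 and 7.86 with RA. All RA arrays were higher than all controls, and control array 3, the dim array, was lowest. The difference was 1.34 ± 0.27, or 2.53-fold with a 95% interval of 1.67 to 3.82, at a limma adjusted p of 0.00308. Without control array 3 it was 1.01, and it passed without any single array (1.01 to 1.60). This call rests on 1 of 4 probe sets. The other one above the filter read 7.05, 6.67 and 7.33 in controls and 7.31, 7.07 and 6.56 with RA, a difference of -0.03 ± 0.25. The 2 that lay below it gave -0.62 and 0.10. Averaged over both probe sets above the filter, Spry4 still passed, at 0.65 (limma adjusted p = 0.0173).

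Dusp6, a phosphatase that removes the activating phosphates of ERK, did not pass. It read 8.91, 8.30 and 8.17 in controls and 8.71, 8.86 and 8.70 with RA. Control array 1 lay above all RA arrays, while the other controls lay below them. The difference was 0.30 ± 0.17 (limma adjusted p = 0.229, 95% interval -0.08 to 0.68). Without control array 1 it passed, at 0.52 (limma adjusted p = 0.0141), so its outcome depends on that array. Without control array 3 it was 0.16, and with RA array 1 also left out 0.18.

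**Figure D2:**
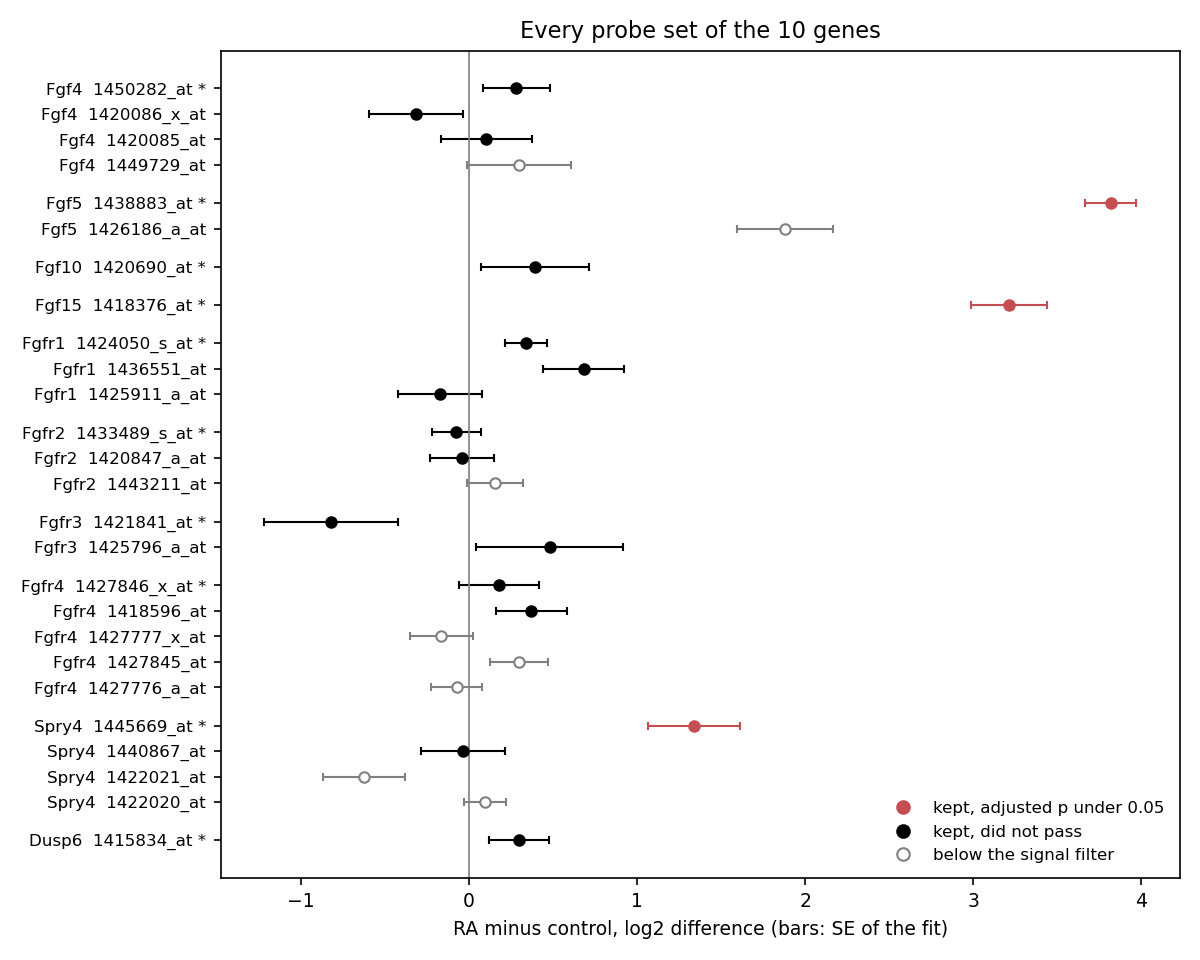
Difference between RA and control arrays (log2, with the SE of the fit as bars) for each of the 26 probe sets of the 10 genes, where an asterisk marks the probe set that stands for the gene. Red points passed over all probe sets above the filter, black points did not, and the 8 open points lay below the filter. Both Fgf5 probe sets lie to the right, at 3.82 and 1.88, while those of Spry4 spread from -0.62 to 1.34 and those of Fgfr3 from -0.82 to 0.48.

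Over their probe sets, 18 of the 26 lay above the filter, and 3 of these passed as higher and 0 as lower, against 11.3% and 11.1% of all 27022 probe sets above the filter. Each of these 3 stands for a different gene. Probe sets of 1 gene read the same RNA and are not replicates. In Affymetrix names, the endings x and s mark probe sets that can also match other sequences, which applies to the main probe sets of Fgfr1, Fgfr2 and Fgfr4. Among the wider pathway genes called further below, it also applies to Lztr1, Dusp9 and Sulf2.

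The wider pathway was read from lists by role, and in all of them together 15 of 67 other genes above the filter rose and 7 fell, where 14.3% of all genes were called higher and 15.6% lower. The counts by role below are to be read against these shares. Their median difference was 0.15. The lists held 77 such genes with a probe set, of which 10 lay below the filter. Some other genes of these roles are not analysed here. Without scaling of the arrays, which moved the median of all genes from 0.01 to 0.26, 16 of these genes were higher and 0 lower. The 7 genes that fell still had negative differences then, from -0.67 for Egr1 to -0.08 for Dusp9. Their SE was larger, for Egr1 0.29 in place of 0.11. Why these calls were lost was not tested. The falls below are read after normalization and so are relative to the bulk of genes.

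Of the 10 other ligand genes above the filter 1 rose. This was Fgf13, which encodes an intracellular relative of the FGFs that binds sodium channels and is not a secreted ligand, from 7.47 to 8.06 on average (0.59 ± 0.15, limma adjusted p = 0.0105). Fgf1, Fgf18, Fgf9 and Fgf12 had differences of 0.43, 0.07, 0.92 and 0.17 and did not pass. A further 8 lay below the filter. One of them, named after its values were seen, was Fgf8, a ligand of the primitive streak, which read 4.66, 4.77 and 4.51 in controls and 5.37, 6.84 and 6.41 with RA. With no filter its difference was 1.55 (limma adjusted p = 0.0266), and RA array 1 was below the filter level.

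Among receptor partners, Klb, the co-receptor that hormone-like FGFs such as Fgf15 need, had a difference of 0.63 ± 0.21 (limma adjusted p = 0.0413). That call was lost under 12 of 19 alternatives, with adjusted p up to 0.127. The decoy receptor Fgfrl1 had -0.11 ± 0.15 and the co-receptor Kl had 0.37 ± 0.24, and neither passed.

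Feedback inhibitors other than the 2 members gave 5 rises and 2 falls among 14 genes, with a median of 0.45. Il17rd (Sef), a membrane protein that restrains FGF receptors, rose most, by 1.68 ± 0.13 or 3.20-fold (limma adjusted p = 2.60e-06). Spry2 (0.84 ± 0.09), the ERK phosphatase gene Dusp4 (0.84 ± 0.16), Spry1 (0.65 ± 0.13) and Spred1 (0.64 ± 0.10) rose as well, with limma adjusted p at most 0.00303. The calls of Spry2 and Spred1 were lost when a gene's probe sets above the filter were averaged (0.50 and 0.30), and Il17rd then stood at 1.10. Lztr1, an adaptor in the breakdown of Ras proteins, fell by 0.65 ± 0.14 (limma adjusted p = 0.00495). Dusp9, an ERK phosphatase, had -0.36 ± 0.11 (limma adjusted p = 0.0313), a call that was lost under 10 of 19 alternatives. Spred2, Rasa1, Cbl and Dusp7 did not pass, at 0.02, 0.07, 0.29 and 0.44. Of the 4 Sprouty genes, Spry4 included, 3 were called higher, and Spry3, named after its values were seen, stood at 0.81 ± 0.30 (limma adjusted p = 0.0608).

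Genes that ERK induces moved in both directions. Etv5, an ETS transcription factor induced by FGF signals, rose by 1.04 ± 0.10 (limma adjusted p = 1.43e-05), or 0.51 over the mean of its probe sets above the filter (limma adjusted p = 0.0438), while the immediate early genes Egr1 and Fos fell by 0.98 ± 0.11 (limma adjusted p = 5.17e-05) and 0.53 ± 0.15 (limma adjusted p = 0.0213). Of 9 genes above the filter 1 rose and 2 fell, and Myc, Ccnd1, Phlda1 and Ier2 had differences between -0.21 and 0.15. Etv4 lay below the filter. The call of Fos was lost without control array 3, RA array 1 or RA array 3 (-0.50 to -0.47).

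The relay from receptor to ERK gave 3 rises and 1 fall in 15 genes. Map2k1, which encodes the ERK kinase MEK1, rose by 0.77 ± 0.13 (limma adjusted p = 0.00123), the adaptor gene Gab1 by 0.61 ± 0.11 (limma adjusted p = 0.00159; 0.37 with its probe sets above the filter averaged) and the kinase gene Braf by 0.52 ± 0.13 (limma adjusted p = 0.0114). Rps6ka3, a kinase activated by ERK, fell by 0.49 ± 0.13 (limma adjusted p = 0.0133), but the mean over its probe sets above the filter stood at 0.03. Ptpn11, Nras, Plcg1 and Sos1, all parts of the step from receptor to Ras or beside it, stood between -0.02 and 0.20 and did not pass.

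Genes of heparan sulphate, the sugar chain that holds FGF at its receptor, gave 4 rises and 2 falls in 16. The sulphatases that edit the chain outside the cell went opposite ways: Sulf1 rose by 1.40 ± 0.12 (limma adjusted p = 8.23e-06) and Sulf2 fell by 0.85 ± 0.11 (limma adjusted p = 0.000181). Of the enzymes that build it, Hs3st1 rose by 1.27 ± 0.22 and Glce by 0.83 ± 0.13, and Hs6st2 fell by 0.62 ± 0.14. The core protein gene Gpc4 rose by 0.90 ± 0.17. The limma adjusted p of these 4 was at most 0.00685. Glce and Hs6st2 lost their calls when probe sets above the filter were averaged (0.24 and -0.30). Gpc3, Sdc1, Hs2st1 and Ext2 did not pass.

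**Figure D3:**
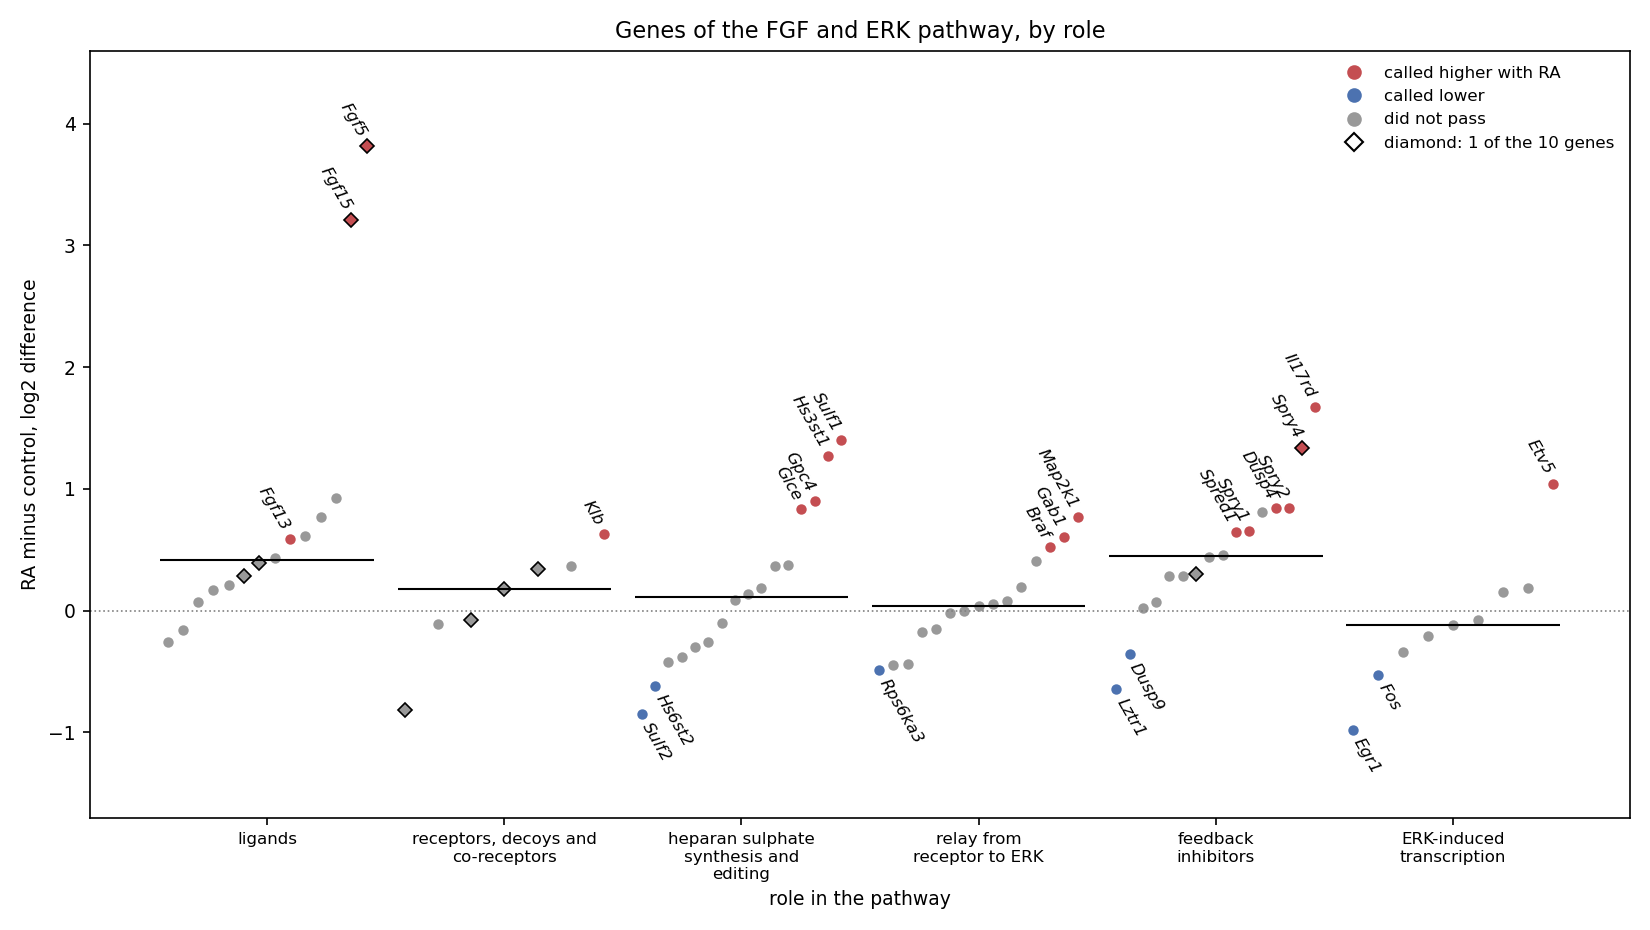
Difference between RA and control arrays (log2) for each gene above the filter, in 6 roles of the pathway, ordered by size within a role, with the median as a line. Diamonds are 8 of the 10 genes in the ligand and receptor lists and the 2 feedback genes; red and blue points were called higher and lower. Fgf5 and Fgf15 stand at fitted differences of 3.82 and 3.21, apart from every other gene shown, of which the next is Il17rd at 1.68.

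Genes likest to Fgf5 over the 6 arrays, by the root mean square difference of centred log2 values, were Pou3f1 (0.096), Dnmt3b (0.150) and Pim2 (0.221). They had differences of 3.74, 3.89 and 4.03. Pou3f1 is a transcription factor and Dnmt3b a DNA methyltransferase of the epiblast, and Pim2 is a survival kinase. Likest to Fgf15 were Trh (0.135), Car4 (0.163) and Amn (0.165), with differences of 3.17, 3.26 and 2.94. For Amn, as for Fgf15, the control mean lay below the filter level (5.64). With 2 groups of 3 arrays, this likeness is mostly a like difference between the groups.

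Cell type markers moved widely beside these genes. Their lists were chosen with earlier results of these data known, so the counts describe the arrays and are no test. Over all genes tested, 14.3% were called higher and 15.6% lower. Each array read whole bodies, so fewer cells of a type and less RNA per cell cannot be told apart. Of 8 epiblast markers 8 rose, and their summed level, on the linear scale with the pseudocount included, went from between 2963 and 3331 in controls to between 17357 and 17677 with RA. Of 6 neural progenitor markers above the filter 4 rose, from summed levels of 1158 to 1327 up to 3397 to 3948. Visceral endoderm markers gave 4 rises and 4 falls in 8, with a median difference of 0.39. Their sums were 24014 to 26102 in controls and 9797 to 11481 with RA, but Afp and Ttr, which both fell, made up most of them. Without these 2, a split chosen after the values were seen, the other 6 summed to 2818 to 3006 in controls and 3908 to 4584 with RA. In the other direction, 6 of 7 cardiac muscle markers fell (sums of 10176 to 15205 and 519 to 584). All 7 mesenchyme markers fell (16746 to 19024 and 2746 to 2978), as did 4 of 4 markers of primitive red cells (15229 to 17303 and 412 to 458). The RA means of the cardiac markers Myh6, Tnnt2 and Ryr2 (5.48, 5.34 and 5.02) lay below the filter level. So did that of the red cell marker Alas2 (4.74), and the sizes of these falls are open to background. Of 5 trophoblast markers 1 fell. No marker was at 0 in these intensities, and Hes5, Hba-a1 and Elf5 lay below the filter. The 4 visceral endoderm markers that rose were Cubn, Cer1, Amn and Dab2, at 3.22, 3.09, 2.94 and 1.75. The 4 that fell were Afp, Apoa1, Ttr and Hnf4a, at -2.69, -2.49, -1.21 and -0.98. The control means of Cer1 and Amn (5.62 and 5.64) lay below the filter level. So did those of the epiblast marker Zic2 (5.57) and the neural progenitor marker Sox1 (4.87). Cer1, Amn, Zic2 and Sox1 thus passed the filter through their RA arrays, and their differences are open to background in controls. The neural progenitor markers Nes (0.02) and Pax6 (0.27) did not pass. The part of cell makeup in the FGF values was not tested.

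**Figure D4:**
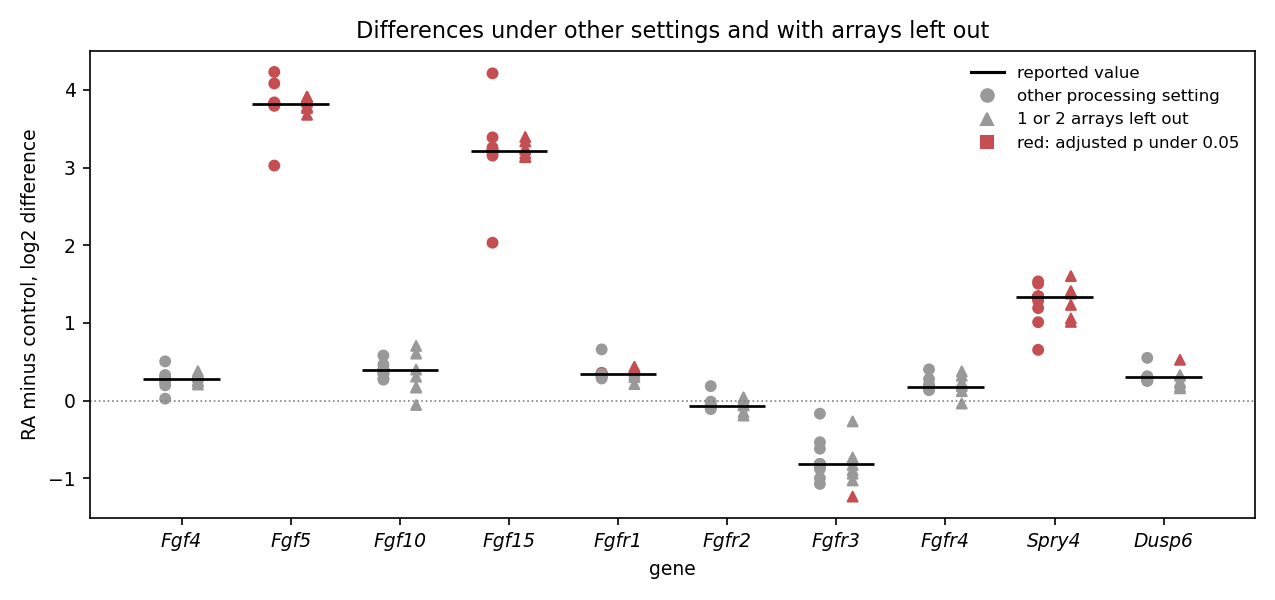
Difference between RA and control arrays (log2) for each of the 10 genes as reported (line), under other processing settings (circles) and with 1 or 2 arrays left out (triangles), red where the limma adjusted p was under 0.05. Fgf5 stays between 3.03 and 4.23, the fitted Fgf15 difference between 2.03 and 4.21 and Spry4 between 0.65 and 1.60, while Fgfr2, Fgfr4 and Fgf10 cross 0.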

How the data were processed

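The data are 6 arrays, 3 control and 3 RA, grouped by the sample titles. The deposited values are linear intensities for 45101 probe sets, made by the authors with GCOS at default settings per the labels. Its version, its parameters and any scaling: not given in the sources used here. The medians differ between arrays, and the quantile step removes this together with any true shift of all genes. The 64 control probe sets were left out. Values were taken as log2(intensity + 16), quantile normalized, filtered at the 40th percentile, and reduced to 1 probe set a gene. The pseudocount of 16 understates the fold of dim genes. RA was set against control in limma 3.58.1 under R 4.3.3, by lmFit and eBayes with a trend (two-sided, no covariates), and p-values were adjusted over all genes. The procedure was tested on simulated data.

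Gene names came from the array annotation table and gene order, build and promoter sequences from RefSeq GRCm38.p6. Coordinates are given only for the promoter windows of Fgf5 and Fgf4. The members, the lists of pathway and marker genes and the naming rule were chosen with earlier results of these data known. The rule named all members, called genes of the wider lists with up to 4 uncalled ones each, the 3 genes likest to Fgf5 and to Fgf15, and counts for marker lists. Neighbours are the nearest 2 protein-coding genes on each side. Alternatives covered scaling, pseudocount, filter, probe set choice, spread estimate, array weights, a replicate block and arrays left out. Deviations of arrays with the same replicate number correlated at -0.09, -0.01 and -0.03, so the numbers were not taken to pair the arrays.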

Additional observations from a re-analysis of the deposited data

How the results depend on the processing

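Fgf5 and Spry4 kept their direction and their call under all 19 alternatives, and Fgf15 under the 18 in which it was tested. For Spry4 every alternative used or included the same probe set, the only one of its 4 that passed. The alternatives therefore do not test that choice, and its other probe set above the filter stood at -0.03. With the replicate number as a replicate block, the 3 members stayed called, at adjusted p of 5.26e-07, 3.05e-05 and 0.00182 for Fgf5, Fgf15 and Spry4 (limma), 1775 genes were higher and 1949 lower, and of the 3 members and 22 wider pathway genes called, Dusp9 and Klb alone lost their calls. Fgfr1 was called under 5 alternatives: a pseudocount of 64, the filter at the 60th percentile, array weights, and without RA array 1 alone or with control array 3. Without scaling, 651 genes were lower against 2127, and 0 of the wider genes were lower against 7. The cause was not tested for single genes. With a gene's probe sets above the filter averaged, Rps6ka3 stood at 0.035 (reversed), and the change comes from the added probe sets. Without RA array 1 and control array 3 together, 4 members were higher and 0 lower. Leaving out 1 array gave 3 to 4 members higher and 0 to 1 lower, the latter Fgfr3 without RA array 2. It gave 1487 to 1815 genes higher and 1733 to 1928 lower, and 14 to 17 wider genes higher and 5 to 7 lower. Of the 22 wider genes called, 10 kept their call under all alternatives. Signal near background limits, among others, Fgf5, Fgf15 and Fgf8 in controls and Fgfr3 on RA array 3. Of the markers, it limits Amn, Cer1, Sox1 and Zic2 in controls and Myh6, Tnnt2, Ryr2 and Alas2 with RA.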
